A study of Homo sapiens with 6 samples.

Results

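The Notch core of sorted L3.6pl pancreatic cancer cells is described here through 10 of the 19469 genes of the count table, namely the ligands DLL1, JAG1 and JAG2, the receptors NOTCH1, NOTCH2 and NOTCH3, the nuclear effector RBPJ and the target genes HES1, HEY1 and NRARP. The genes were found by symbol, and all 10 were in the table. They were chosen by their counts in L1low and L1high cells, which were known beforehand, so their differences between these groups are given as a description and without a test. Of the 10 genes, 2 (DLL1 and JAG2) had every L1low library above every L1high library, 3 (NOTCH3, HEY1 and NRARP) had every L1low library below, and the groups overlapped in 5 (JAG1, NOTCH1, NOTCH2, RBPJ and HES1). Among all genes, 15.2% stood above and 13.7% stood below in the same sense, and nothing is read from the count of the 10 against these shares.

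Notch signaling passes between cells in contact. A ligand of the Delta or Jagged family on the sending cell binds a Notch receptor on its neighbor, the receptor is cut by an ADAM protease and then by gamma-secretase, and the freed intracellular domain enters the nucleus, where it joins the DNA-binding protein RBPJ and a Mastermind coactivator at target genes such as those of the HES and HEY repressors. Ligands can also bind receptors on their own cell, which blocks these receptors, and in the pancreas the pathway is known for holding progenitor and duct cells away from the acinar and endocrine fates.

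L3.6pl is an established human pancreatic cancer line, which the cell line label spells L6.6pl, labelled as ductal adenocarcinoma by tissue and as adenosquamous carcinoma by disease. The cells were grown without treatment and sorted by FACS with an antibody to surface L1CAM, a neural cell adhesion molecule also made by tumor cells, into an L1CAM_POSITIVE and an L1CAM_NEGATIVE population, called L1high and L1low below. mRNA of 3 L1high and 3 L1low libraries was sequenced, and all come from this single line. The methods state in general that sorting experiments were repeated independently, with replicate samples in each, but do not say whether the 3 libraries of a group are such repeats. The spread between them, and the p-values built on it, may therefore be technical. The differential expression table of the study uses L1low replicates 1, 2 and 3 and L1high replicates 1 and 2. Each fitted difference is therefore given over these 5 libraries first and over all 6 beside it.

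Libraries held 16334610 to 21064685 counts on genes, and no pair of a group agreed within sampling noise. Values per library are CPM, the usual depth-scaled read count in which the reads on a gene are divided by the TMM-scaled total of the library, and log2 fold changes are L1low minus L1high. The sorting marker L1CAM stood at 84.0, 69.8 and 89.5 CPM in L1high replicates 1, 2 and 3 and at 17.7, 23.7 and 20.0 CPM in L1low replicates 1, 2 and 3, which is a log2 difference of -1.90 with an SE of 0.12 and an adjusted p of 3.7e-06 (edgeR quasi-likelihood test, Benjamini-Hochberg adjustment). By this test 1473 genes (7.57%) differed between the groups over the 5 libraries, 859 higher (4.41%) and 614 lower (3.15%) in L1low cells, and 1548 genes (7.95%) differed over all 6. Epithelial and squamous markers were all in the table, 6 of 6 and 4 of 4, with summed levels of 4232 to 4785 and 4170 to 4252 CPM in L1high and of 4780 to 5130 and 4474 to 4673 CPM in L1low libraries. Of the 4 squamous markers, TP63, the master regulator of squamous epithelium, rose by 1.09 on the log2 scale (adjusted p = 3.9e-06 in edgeR) and the keratin gene KRT14 by 0.50 (0.0034), while the keratin gene KRT6A fell by 0.58 (1.9e-04) and KRT5 did not pass (0.14, 0.23). Of the 6 epithelial markers, KRT19 rose by 0.69 on the log2 scale (adjusted p = 6.8e-05 in edgeR), EPCAM fell by 0.37 (0.013) and 4 did not pass. Of markers of other cells, 4 of 8 for fibroblasts (summed 91.3 to 105 CPM in L1high and 146 to 165 CPM in L1low libraries), 1 of 5 for endothelium (11.3 to 11.9 and 13.2 to 14.7 CPM), 1 of 6 for leukocytes (8.42 to 8.81 and 9.37 to 11.3 CPM) and 0 of 5 for neural cells were in the table. The fibroblast sum was mostly LUM, which rose by 0.74 on the log2 scale (adjusted p = 3.1e-04 in edgeR). The other fibroblast markers of the table did not pass, and PDGFRB, PDGFRA, DCN and FAP were not among its genes. The part of these marker shifts in the Notch values was not tested.

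DLL1 was the ligand with the largest log2 fold change, while JAG2 differed by more CPM. This Delta family ligand (ENSG00000198719, GRCh38 chr6:170282206-170306565, minus strand) stood at 14.4, 13.8 and 16.7 CPM in L1high replicates 1, 2 and 3 and at 41.1, 47.7 and 43.3 CPM in L1low replicates 1, 2 and 3, from raw counts of 305, 283 and 274 and of 747, 856 and 766. The highest L1high library stayed far under the lowest L1low library. Mean levels were 14.9 ± 1.54 CPM in L1high and 44.0 ± 3.35 CPM in L1low cells (SD, n = 3 each), a ratio of 2.94, and the log2 fold change was 1.65 (standard error, SE, 0.11) over 5 libraries and 1.56 (0.10) over all 6. DLL1 overlaps FAM120B on the opposite strand, and whether the counting used strand is not given in the sources used here. FAM120B itself had 363, 318 and 247 counts in L1high and 347, 351 and 295 counts in L1low libraries, and its own log2 fold change was 0.19. In these bulk libraries a larger share of DLL1-expressing cells and more DLL1 RNA per cell cannot be told apart, and the same holds for every gene below.

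JAG2, a Jagged family ligand (ENSG00000184916, chr14:105140982-105168824, minus strand), had the same direction as DLL1. It stood at 63.6, 47.2 and 64.4 CPM in L1high libraries and at 131, 136 and 140 CPM in L1low libraries. All 3 L1low values lay above the 3 L1high values, and the lowest of the 6 was that of L1high replicate 2. Mean levels were 58.4 ± 9.72 and 136 ± 4.40 CPM (SD, n = 3 each), a ratio of 2.33, with a log2 fold change of 1.30 (SE 0.11) over 5 libraries and 1.22 (0.11) over all 6. A long noncoding RNA without a symbol, ENSG00000257622, lies over JAG2 on the same strand and had 162, 146 and 147 counts in L1high and 304, 302 and 282 counts in L1low libraries, against 969 to 1349 and 2387 to 2482 counts for JAG2. Reads of the 2 genes may have been divided between them, and those of the microRNA gene MIR6765 within JAG2 likewise. JAG1 and NOTCH3 also hold microRNA genes on their strand, MIR6870 with 34 to 51 counts and MIR6795 with 24 to 67 counts per library.

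JAG1, the other Jagged ligand, did not share this difference. Its levels were 172, 153 and 161 CPM in L1high and 172, 176 and 165 CPM in L1low libraries. The groups overlapped, and the log2 fold change was 0.09 (SE 0.08) over 5 libraries and 0.08 (0.07) over all 6. The remaining Delta ligands, DLL3 and DLL4, were not among the genes of the table, where every gene exceeds 1 CPM in 2 or more libraries.

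**Figure D1:**
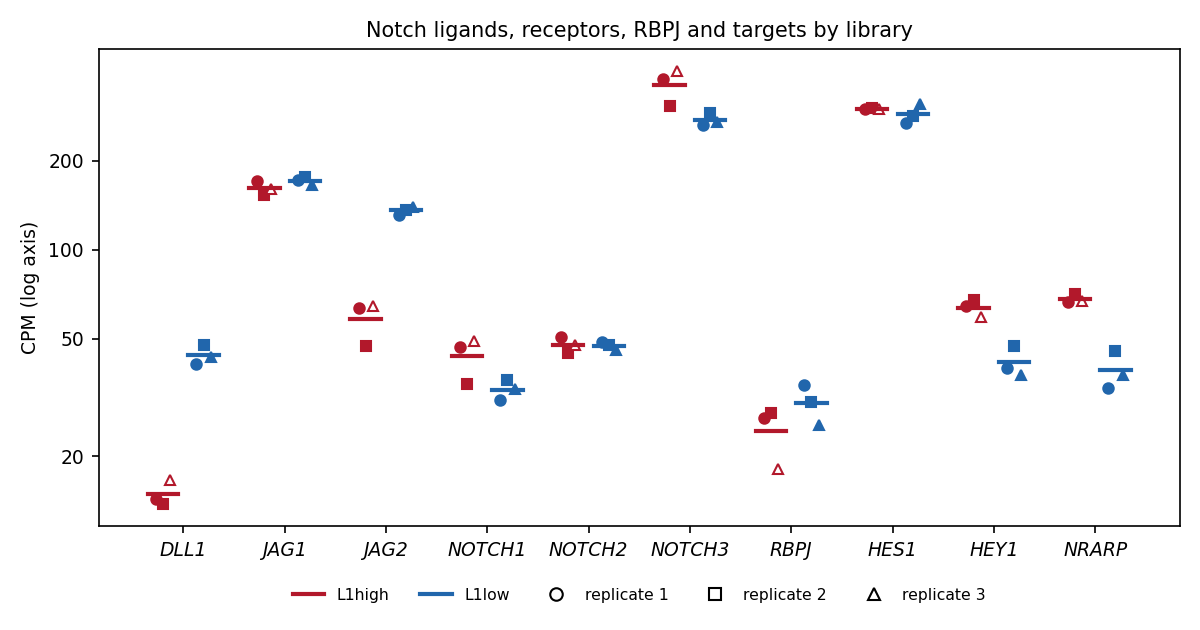
Level of the 10 Notch core genes in each library, in CPM on a log axis, with L1high in red, L1low in blue, a symbol for each replicate, an open symbol for L1high replicate 3 (outside the 5-library comparison) and a line at the mean of the 3 libraries. DLL1 and JAG2 stand higher and NOTCH3, HEY1 and NRARP lower in all 3 L1low libraries, and the groups overlap in the other 5 genes.

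Among the 3 receptors, NOTCH3 was the only one whose groups did not overlap. It stood at 378, 307 and 403 CPM in L1high and at 265, 291 and 270 CPM in L1low libraries. Every L1low value lay below every L1high value, but L1high replicate 2 was closer to the L1low libraries than to the other L1high ones. Mean levels were 363 ± 49.9 and 275 ± 13.7 CPM (SD, n = 3 each), a log2 fold change of -0.31 (SE 0.09) over 5 libraries and -0.40 (0.09) over all 6. When L1high replicate 2 was left out of the 6, it was -0.50.

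NOTCH1 stood at 47.0, 35.1 and 49.3 CPM in L1high and at 31.2, 36.2 and 33.7 CPM in L1low libraries. L1high replicate 2 again lay with the L1low libraries, while the other L1high values were above all of them. The log2 fold change was -0.28 (SE 0.12) over 5 libraries, -0.38 (0.12) over all 6 and -0.52 over the 6 without L1high replicate 2. NOTCH2 showed next to no difference, with 50.5, 44.8 and 47.7 CPM in L1high and 48.7, 47.6 and 45.9 CPM in L1low libraries and a log2 fold change of 0.00 (SE 0.09) that ran from -0.05 to 0.04 over the alternatives. NOTCH2 shares near-identical sequence with the human-specific NOTCH2NL genes, of which NOTCH2NLA had 284 to 427 counts per library, so its counts are uncertain.

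To set the ligands beside each other, CPM was divided by the length of the exons of each gene in kb. The alignment did not place reads across splice junctions, and the loss may differ between genes. Levels set beside each other between genes are therefore uncertain. On this scale the summed level of DLL1, JAG1 and JAG2 was 32.2, 27.4 and 31.8 CPM per kb in L1high replicates 1, 2 and 3 and 49.8, 52.8 and 51.0 CPM per kb in L1low replicates 1, 2 and 3. DLL1 made up 11.7%, 13.1% and 13.8% of this sum in L1high and 21.6%, 23.7% and 22.2% in L1low libraries. JAG2 made up 30.9%, 26.9% and 31.7% and then 41.2%, 40.4% and 42.9%. JAG1 was the leading ligand in every L1high library, with 54.5% to 60.0% of the sum, and came second to JAG2 in every L1low library, with 34.9% to 37.1%. With the longest transcript as the length, the share of JAG1 was 63.5% to 68.6% in L1high and 43.8% to 46.3% in L1low libraries, and JAG1 then led in both groups.

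The receptor pool had a single main component. NOTCH3 took 85.6%, 85.6% and 86.3% of the summed receptor level in L1high and 83.9%, 84.4% and 84.1% in L1low libraries. The sum itself was 46.9, 38.1 and 49.7 CPM per kb in L1high and 33.6, 36.6 and 34.1 CPM per kb in L1low libraries. Thus the receptor sum exceeded the ligand sum in every L1high library, and the ligand sum exceeded the receptor sum in every L1low library, with either length. The limit on levels between genes given above holds for this comparison too. These are RNA levels and hold no measure of protein at the cell surface.

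RBPJ, the DNA-binding protein through which the Notch receptors act on genes, overlapped between the groups. It stood at 26.9, 28.1 and 18.1 CPM in L1high and at 35.0, 30.6 and 25.5 CPM in L1low libraries. The lowest value was that of L1high replicate 3, and L1low replicate 3 lay below both other L1high libraries. The log2 fold change was 0.15 (SE 0.13) over 5 libraries and 0.31 (0.16) over all 6, and across the alternatives it ran from 0.03 to 0.43.

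The target genes were not alike. NRARP, which encodes an ankyrin-repeat protein that binds the Notch complex and limits its activity, stood at 66.7, 71.0 and 67.3 CPM in L1high and at 34.1, 45.6 and 37.8 CPM in L1low libraries. HEY1, a transcriptional repressor of the bHLH class, stood at 64.3, 67.8 and 59.2 CPM in L1high and at 40.0, 47.4 and 37.7 CPM in L1low libraries. For both genes all L1low values were below all L1high values, and L1low replicate 2 was the highest of its group. The log2 fold changes of NRARP were -0.80 (SE 0.11) over 5 libraries and -0.80 (0.10) over all 6. Those of HEY1 were -0.66 (0.10) and -0.61 (0.10).

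HES1, the bHLH repressor most often read as a Notch target in the pancreas, stood at 300, 302 and 299 CPM in L1high and at 269, 283 and 312 CPM in L1low libraries. The L1low values lay on both sides of the narrow L1high range. The log2 fold change was -0.06 (SE 0.08) over 5 libraries and -0.06 (0.07) over all 6, and the alternatives ran from -0.12 to -0.01. The mean levels of HES1 were 300 ± 1.75 CPM in L1high and 288 ± 22.1 CPM in L1low cells (SD, n = 3 each). Those of HEY1 were 63.8 ± 4.36 and 41.7 ± 5.04 CPM, and those of NRARP were 68.3 ± 2.34 and 39.2 ± 5.90 CPM.

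Over all 10 genes the median log2 fold change was -0.03, beside a median of 0.00 over all genes tested.

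The promoters of HES and HEY genes were looked up because this family includes classical RBPJ targets. Those that held the core of the RBPJ binding motif, TGGGAA, are shown. Sequences are the 250 bases before the transcription start in RefSeq on GRCh38.p14, written from 5′ to 3′ on the strand of the gene, with every TGGGAA or its reverse complement TTCCCA in capitals.
HES1 (chr3:194135898-194136147, plus strand): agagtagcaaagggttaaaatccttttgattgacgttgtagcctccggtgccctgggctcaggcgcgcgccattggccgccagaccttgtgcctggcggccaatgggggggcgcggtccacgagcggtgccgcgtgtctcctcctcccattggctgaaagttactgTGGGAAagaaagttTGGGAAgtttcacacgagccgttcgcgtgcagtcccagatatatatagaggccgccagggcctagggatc
HES4 (chr1:1000098-1000347, minus strand): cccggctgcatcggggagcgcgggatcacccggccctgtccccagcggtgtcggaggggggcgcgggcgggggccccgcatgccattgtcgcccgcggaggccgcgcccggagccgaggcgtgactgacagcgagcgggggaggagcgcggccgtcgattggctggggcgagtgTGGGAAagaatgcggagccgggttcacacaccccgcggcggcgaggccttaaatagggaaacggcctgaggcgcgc
HEYL (chr1:39639644-39639893, minus strand): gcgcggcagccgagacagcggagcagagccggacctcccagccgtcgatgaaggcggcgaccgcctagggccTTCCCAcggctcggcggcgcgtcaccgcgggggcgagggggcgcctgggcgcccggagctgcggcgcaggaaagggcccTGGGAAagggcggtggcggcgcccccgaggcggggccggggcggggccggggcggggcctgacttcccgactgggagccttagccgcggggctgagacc
HEY2 (chr6:125749382-125749631, plus strand): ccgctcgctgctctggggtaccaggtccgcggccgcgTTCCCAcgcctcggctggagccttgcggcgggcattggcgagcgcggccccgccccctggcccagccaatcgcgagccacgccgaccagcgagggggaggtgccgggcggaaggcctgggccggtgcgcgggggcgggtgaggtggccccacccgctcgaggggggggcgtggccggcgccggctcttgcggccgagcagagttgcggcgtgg

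In HES1 the first bases of the motif lay 84 and 70 bases before the start, both on the strand of the gene. HEYL also held 2 matches, at 178 bases before the start as the reverse complement and at 99 bases. HES4 held 1 match at 76 bases, and HEY2 held 1 at 213 bases as the reverse complement. The other 3 HES genes looked up, HES2, HES6 and HES7, held none in this window. Such a match is common, since 7321 of the 35116 RefSeq windows of this length (20.8%) held at least 1 match on either strand and 1017 (2.90%) held at least 2. Of the Notch core genes, 8 had a promoter in the RefSeq table and 2 of these held a match, HES1 and RBPJ, the latter at 1 of the 5 starts listed for it. NRARP, JAG1, JAG2, NOTCH1, NOTCH2 and NOTCH3 held none. The match is to these letters only, other forms of the RBPJ site were not searched for, and no binding was measured.

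Outside the core, 89 further genes of the pathway were listed by role, and 71 of them were in the table. Over the 5 libraries 10 of these rose and 4 fell in L1low cells (edgeR, adjusted p under 0.05), which is 19.7% of the 71, and 57 did not pass. Over all 6 libraries 11 rose and 4 fell. The background is the 7.57% and 7.95% called among all genes. These lists were made with earlier results of these data known, so nothing is read from the share of the 71 against it. The same holds for the counts of each list below. The median log2 fold change of the 71 genes was 0.07.

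The remaining HES and HEY genes of the table had log2 fold changes from -0.76 to -0.04. Of 8 genes 6 were in the table, and 3 of them fell, where 3.15% of all genes fell. The median log2 fold change of the 6 was -0.58. HES2, which had the highest CPM of the list, stood at 30.1, 29.4 and 30.5 CPM in L1high and 17.6, 17.6 and 17.2 CPM in L1low libraries and fell by 0.76 on the log2 scale (SE 0.10, adjusted p = 6.0e-04 in edgeR). HES4 stood at 11.4, 9.98 and 15.8 CPM in L1high and at 5.06, 7.41 and 6.89 CPM in L1low libraries, and its log2 fold change was -0.72 (adjusted p = 0.025 in edgeR) over 5 libraries and -0.93 (0.012) over all 6. In both genes the groups were apart, and HES4 varied more within each group than HES2 did. HEYL stood at 8.15, 8.67 and 7.43 CPM in L1high and at 5.78, 4.85 and 6.10 CPM in L1low libraries, a log2 fold change of -0.58 (adjusted p = 0.046 in edgeR). HEYL lay close to the threshold and passed it in 11 of the 19 fits made. HEY2, HES6 and HES7 did not pass. HEY2 had 4.26 to 4.67 CPM in L1high and 2.60 to 3.23 CPM in L1low libraries (-0.58, SE 0.20, adjusted p = 0.10 in edgeR). The log2 fold change of HES7 was -0.31 (SE 0.20, adjusted p = 0.39 in edgeR). That of HES6 was -0.04 (SE 0.24, adjusted p = 0.94 in edgeR), with overlapping groups. HES3 and HES5 were not among the genes of the table.

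SOX9, a transcription factor of pancreatic progenitors and ducts that is also named as a Notch target, fell. It stood at 29.9, 31.4 and 27.9 CPM in L1high and at 13.6, 17.3 and 13.8 CPM in L1low libraries, with no overlap, and its log2 fold change was -1.03 (SE 0.12, adjusted p = 2.5e-04 in edgeR). The other 3 named targets, MYC, CCND1 and CDKN1A, did not pass. MYC, with the highest CPM of them, had a log2 fold change of 0.07 (adjusted p = 0.58 in edgeR).

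**Figure D2:**
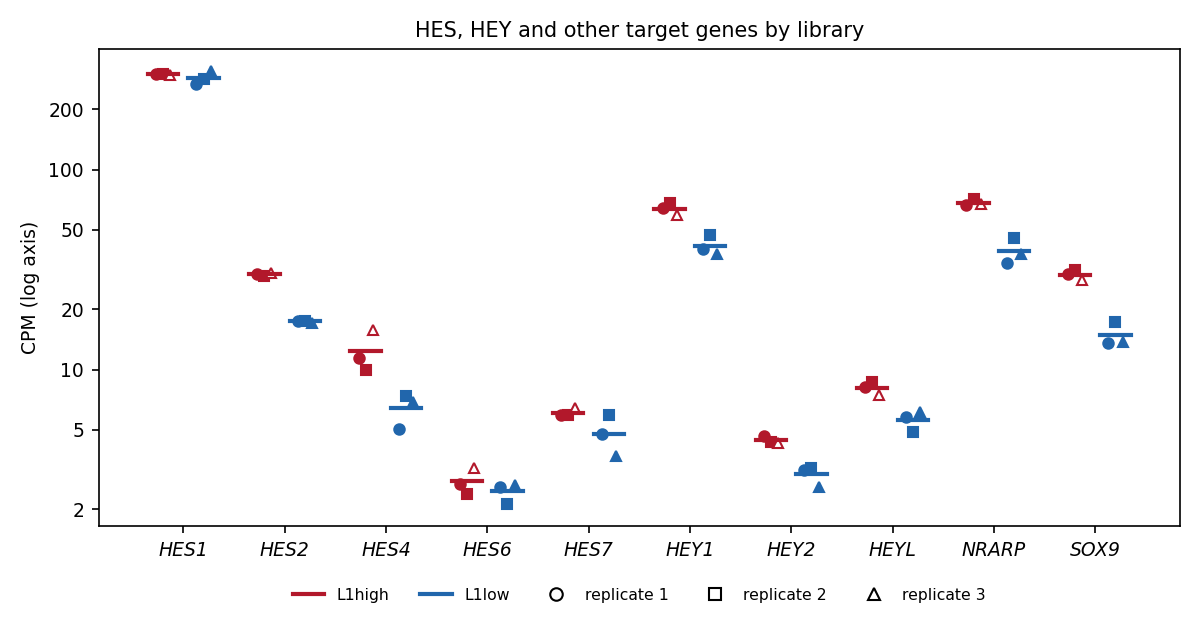
Level of HES, HEY and other target genes in each library, in CPM on a log axis, with L1high in red, L1low in blue, a symbol for each replicate, an open symbol for L1high replicate 3 and a line at the mean of the 3 libraries. HES1 and HES6 overlap between the groups, while HES2, HES4, HES7, HEY1, HEY2, HEYL, NRARP and SOX9 stand lower in every L1low library. Among all genes 13.7% stood lower in this sense. HES7 is only just apart, at 5.91 CPM in L1low replicate 2 and 5.94 CPM in L1high replicate 2. HES7 and HEY2 did not pass (adjusted p = 0.39 and 0.10 in edgeR).

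Of 8 transcription factor genes listed as opposed by HES1, most of them of the bHLH class, only ATOH8 was in the table. Those outside it included ATOH1, NEUROG3, NEUROD1, PTF1A and INSM1. ATOH8, a transcription factor of the atonal family, stood at 1.51, 1.66 and 1.89 CPM in L1high and at 5.78, 4.40 and 4.97 CPM in L1low libraries. It rose by 1.68 on the log2 scale (SE 0.23, adjusted p = 7.1e-04 in edgeR) without overlap of the groups.

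The sugar transferases that modify Notch receptors held the largest change among the further genes. LFNG, the Fringe enzyme that extends fucose on the receptor and so tunes its response to Delta and Jagged ligands, stood at 3.54, 2.48 and 4.26 CPM in L1high and at 11.2, 11.1 and 11.4 CPM in L1low libraries. The L1low libraries were nearly equal and far above the L1high ones, and LFNG rose by 1.90 on the log2 scale (SE 0.18, adjusted p = 3.5e-05 in edgeR) over 5 libraries and by 1.72 over all 6. A second Fringe, MFNG, stood at 5.89, 5.79 and 7.61 CPM in L1high and at 10.8, 9.14 and 10.6 CPM in L1low libraries and rose by 0.81 (adjusted p = 0.0063 in edgeR). The third Fringe, RFNG, stood at 32.6 to 34.4 CPM in L1high and 36.7 to 41.6 CPM in L1low libraries and did not pass (log2 fold change 0.24, adjusted p = 0.17 in edgeR). The other 8 transferases did not pass either, and POFUT1, which places the fucose and had the highest CPM of the 11, showed a log2 fold change of 0.07. The median of the 11 genes was -0.04.

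Among the further ligands and receptors 4 of 10 were in the table and 1 rose. DLK2, a membrane protein related to the Delta ligands but without their receptor-binding DSL domain, stood at 6.55, 5.06 and 6.40 CPM in L1high and at 14.8, 15.4 and 18.9 CPM in L1low libraries and rose by 1.50 on the log2 scale (SE 0.17, adjusted p = 1.3e-04 in edgeR). It overlaps ABCC10 on the opposite strand, whose log2 fold change was 0.30. Its paralog DLK1 stood at 1.10 to 1.56 CPM in L1high and 2.31 to 3.18 CPM in L1low libraries and passed over all 6 libraries (1.04, adjusted p = 0.019 in edgeR) but not over the 5 (0.94, 0.052). NOTCH2NLA, which had the highest CPM of these genes, did not pass (-0.26, adjusted p = 0.18 in edgeR), and it also overlaps NBPF10.

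Receptor processing showed no call, where 7.57% of all genes were called. All 9 genes of Notch proteolysis were in the table, from the furin protease FURIN and the sheddases ADAM10 and ADAM17 to the gamma-secretase subunits, and 0 of 9 passed in edgeR's quasi-likelihood test, in its exact test and in DESeq2, while 2 had an unadjusted p under 0.05 in the first, with log2 fold changes of -0.12 to 0.39 and a median of 0.09. APH1A, with the highest CPM of them, had 131 to 164 CPM in L1high and 161 to 174 CPM in L1low libraries. Of 16 genes of trafficking and turnover 14 were in the table and 1 rose (7.14%, near the share over all genes), with a median log2 fold change of 0.05. This was DTX3, a ubiquitin ligase of the Deltex family, at 23.1, 19.4 and 20.3 CPM in L1high and 26.4, 28.1 and 29.6 CPM in L1low libraries (0.41, adjusted p = 0.047 in edgeR), which passed in 12 of the 19 fits. EPN1, an adaptor for endocytosis of ligands with the highest CPM of this list, had a log2 fold change of 0.12 and did not pass.

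The nuclear cofactors differed by small amounts. Among all genes 4.41% rose and 3.15% fell. Of 23 genes 22 were in the table, 5 rose, 0 fell (also 0 in DESeq2 and edgeR's exact test, and 0 at an unadjusted p under 0.05), and 19 had a positive log2 fold change, with a median of 0.21. MAML2, a Mastermind coactivator of the Notch complex, stood at 3.35, 2.63 and 2.50 CPM in L1high and at 4.79, 5.91 and 5.70 CPM in L1low libraries and rose by 0.88 on the log2 scale (SE 0.20, adjusted p = 0.021 in edgeR). The acetyltransferase CREBBP rose by 0.37 (adjusted p = 0.020 in edgeR). Genes that rose also included some that are no coactivators, namely the RBPJ corepressor SPEN (0.33, adjusted p = 0.048 in edgeR) and the short Groucho family protein TLE5 (0.27, 0.042). TLE5 had the highest CPM of the list, at 269, 271 and 290 CPM in L1high and 309, 331 and 330 CPM in L1low libraries, and did not pass over all 6 libraries (0.22, adjusted p = 0.052 in edgeR). SPEN passed in 9 of the 19 fits and TLE5 in 11.

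**Figure D3:**
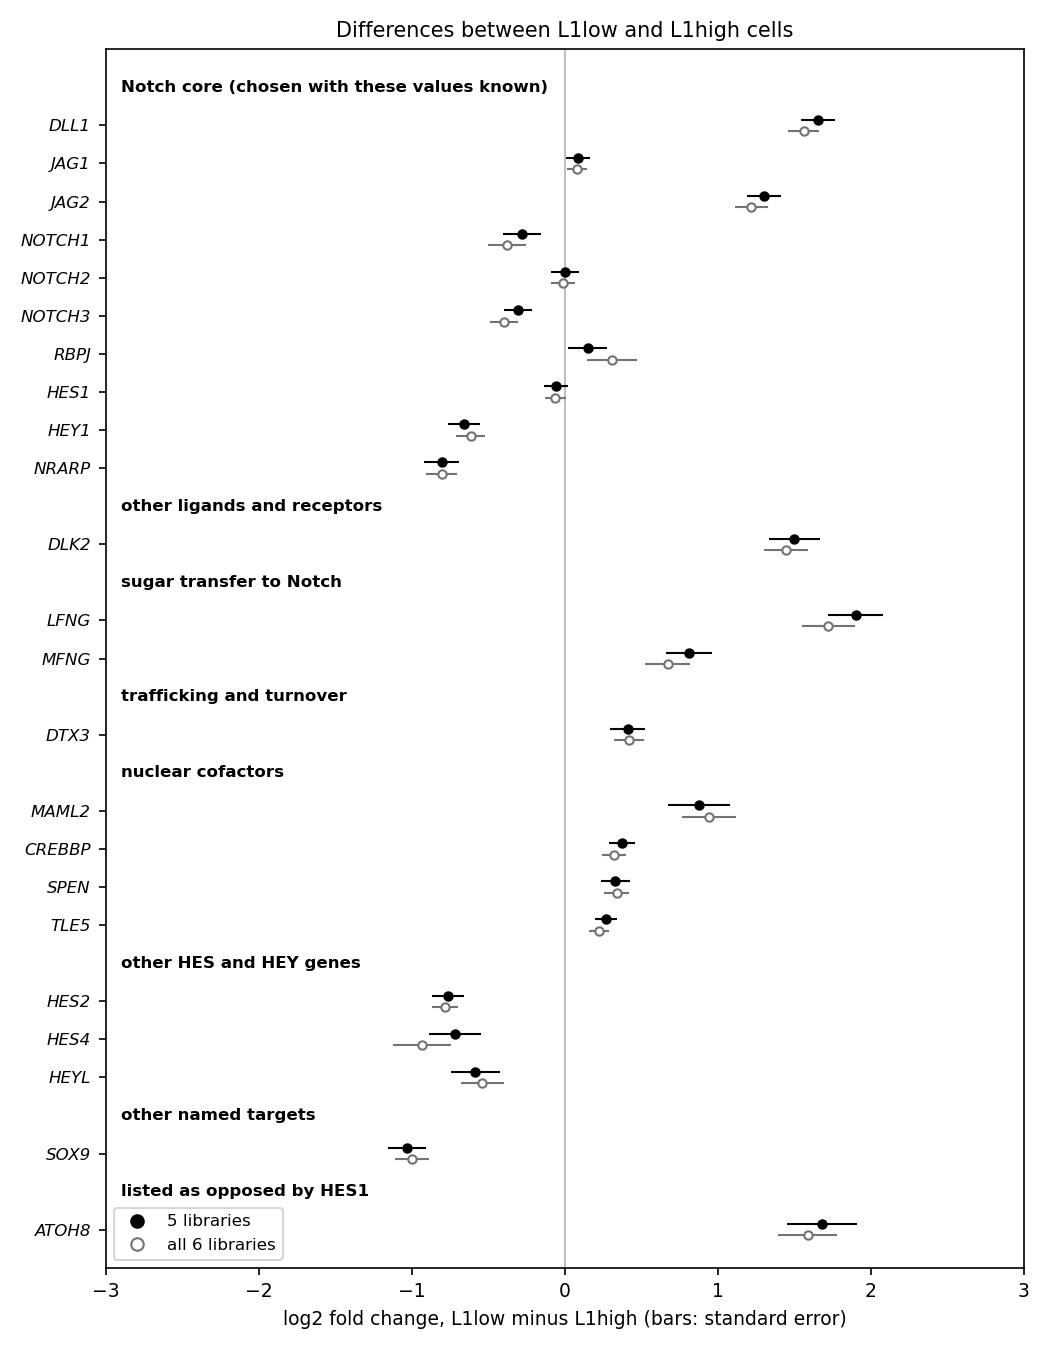
Log2 fold change (L1low minus L1high) with its standard error (SE) for the 10 Notch core genes and for named genes of the other pathway lists, over 5 libraries (filled) and all 6 libraries (open). DLL1, JAG2, DLK2, LFNG and ATOH8 lie above 1, JAG1, NOTCH2 and HES1 lie near 0, and HES2, HES4, HEYL, HEY1, NRARP and SOX9 lie below 0.

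The order of the Notch core genes by level was read in CPM per kb of exons within each group, with the same uncertainty from reads across splice junctions. In L1high cells HES1 came first at 146 ± 0.848, followed by NOTCH3 at 38.5 ± 5.31, NRARP at 25.9 ± 0.887, JAG1 at 17.4 ± 1.002, HEY1 at 11.6 ± 0.795 and JAG2 at 9.13 ± 1.52 (SD, n = 3 each). DLL1 followed at 3.91 ± 0.403, NOTCH1 at 3.50 ± 0.609, NOTCH2 at 2.85 ± 0.172 and RBPJ at 1.59 ± 0.358. DLL1 and NOTCH1, and NOTCH1 and NOTCH2, had overlapping ranges, and all other neighbors were apart.

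In L1low cells HES1 was again first at 140 ± 10.7 and NOTCH3 second at 29.3 ± 1.45, and then came JAG2 at 21.3 ± 0.688, JAG1 at 18.4 ± 0.591, NRARP at 14.8 ± 2.23, DLL1 at 11.5 ± 0.878 and HEY1 at 7.60 ± 0.919 CPM per kb (SD, n = 3 each). NOTCH2 at 2.83 ± 0.0842 and NOTCH1 at 2.69 ± 0.200 overlapped, and RBPJ was last at 1.98 ± 0.310. DLL1 thus overlapped NOTCH1 in level in L1high cells and stood above HEY1 in L1low cells on this scale. With the longest transcript as the length, 5 of the 10 genes kept their rank in each group, DLL1 was then last in L1high cells at 3.96 ± 0.407 CPM per kb, and in L1low cells its range of 10.9 to 12.6 CPM per kb overlapped that of HEY1, 9.73 to 12.2.

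Over the 6 libraries, the genes whose pattern was most like that of DLL1 were NGFR, TGM1, CGB7, TNS1 and EGR2. Likeness was the root mean square difference of log2 CPM after each gene was centered on its own mean, among the 17022 genes whose average log2 CPM was 1 or more, and it was 0.10 for NGFR, 0.10 for TGM1, 0.11 for CGB7, 0.11 for TNS1 and 0.12 for EGR2. NGFR, the neurotrophin receptor, stood at 10.9, 9.15 and 12.0 CPM in L1high and at 32.9, 35.7 and 35.7 CPM in L1low libraries. TGM1, the transglutaminase of keratinocytes, stood at 17.0, 14.6 and 18.0 CPM and then at 40.6, 45.3 and 47.8 CPM. EGR2, a zinc finger transcription factor, stood at 19.8, 18.4 and 20.2 CPM and then at 46.3, 52.1 and 53.3 CPM. CGB7 belongs to a family of near-identical genes, so its counts are uncertain. These patterns consist mostly of the step between the groups, which the 6 libraries share. Ranked by Pearson correlation instead, the 5 genes nearest to DLL1 were THSD4, CCNJL, SLC2A1, BCAM and NEK6, and 0 of the 5 were shared.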

How the data were processed

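RNA of FACS-sorted L1high and L1low L3.6pl cells was sequenced as stranded mRNA libraries. The authors aligned reads to GRCh38 with BWA, which does not place reads across splice junctions, and the deposited values are featureCounts read counts per gene without normalization. Versions and the strand option are not given in the sources used here. All 19469 genes of the table exceeded 1 CPM in 2 or more libraries, so its low genes had been removed. GENCODE release 44 matched 19344 identifiers and gave coordinates, exon lengths and the longest transcripts.

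Fits of L1low against L1high were made with edgeR 4.0.16 under R 4.3.3 (TMM, filterByExpr, quasi-likelihood test, Benjamini-Hochberg adjustment over all genes tested, threshold 0.05). A prior count of 2 was used only for the log2 CPM values behind the likeness to DLL1 and the correlations of same-numbered libraries. The standard error is the log2 fold change divided by the square root of F. Replicates had a common biological coefficient of variation of 0.09. The closest pair of libraries, L1high replicates 1 and 3, had a chi-square divided by its degrees of freedom of 3.66, more than sampling noise gives. The fit over 5 libraries was tested on simulated counts of 19468 genes, 200 of which carried a log2 change of 1. It recovered 177 of these (88.5%), and 8 of its 185 calls were false. The simulated counts gave every gene the common coefficient of variation and no replicate structure, so these rates need not hold for the real libraries.

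The members and lists were chosen with earlier results of these data known, and the LFNG row of the study's own table had been seen. The authors' fold changes and p-values were not used. Named genes are the members, L1CAM, pathway genes past the threshold, the gene with the highest mean CPM of each list, the 5 genes most like DLL1, and genes overlapping a member. Some genes counted in the lists are not reported here by name. Markers, RFNG, DLK1, HEY2 and other genes that missed the threshold were named after their values were seen. Other settings tried were the 6 libraries together, leaving out each replicate, a block for the replicate number, DESeq2 1.42.0, the exact test of edgeR, scaling by RLE, by the upper quartile or by totals alone, no filter, at least 10 counts in every library, the longest transcript as length, and Pearson correlation for likeness.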

Additional observations from a re-analysis of the deposited data

How the results depend on the processing

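Recomputing gave 635 values, of which 43 kept their direction and lost the threshold and 21 moved by more than the spread between replicates or, for counts, by over 1.5 times. The sign changed in 12 values of 2 genes that stood near 0. These were 11 values of NOTCH2 and 1 of POFUT1, which was -0.011 over the 6 libraries without L1high replicate 2. DLL1 ran from 1.50 to 1.70 on the log2 scale, JAG2 from 1.09 to 1.33, HEY1 from -0.76 to -0.54 and NRARP from -0.93 to -0.71 over the alternatives. LFNG, DLK2, HES2, HES4, SOX9 and ATOH8 passed in all 19 fits, MFNG and MAML2 in 17, and CREBBP in 16. The fit without a filter was identical to the main one, since the filter removed no gene there, so it is no separate check. When 1 library was left out, the count of all genes called ran from 551 (L1low replicate 2, of the 5) to 1649 (L1low replicate 3, of the 5), and that of the 71 further pathway genes from 7 (L1low replicate 2) to 14, against 1473 and 14. Of the 6, leaving out L1high replicate 1 gave 674 and 8 calls, and leaving out L1low replicate 2 gave 627 and 7. The cause was not tested.

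Whether the replicate numbers pair the libraries is not stated in the sample titles, and the main fit did not pair them. The correlations of same-numbered libraries were 0.12, 0.10 and 0.29, which does not settle it. With the number as a block, 2363 genes and 18 pathway genes were called over all 6 libraries, against 1548 and 15 without it. Over the 5 libraries 1799 genes and 13 pathway genes were called with the block, against 1473 and 14. In that fit L1low replicate 3 had no partner, because L1high replicate 3 was left out. Its group difference therefore rests on replicates 1 and 2 alone, although it is counted among the 19 fits. As a hint from the data, 5 of the 6 libraries correlated best with their own number. DESeq2 called 1506 genes and 13 pathway genes, and edgeR's exact test 2071 and 17. Genes under the level that the table kept could not be assessed.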
